A study of Salmo salar with 8 samples.

Results

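LOC106577955 and LOC106592219 are protein-coding loci of Atlantic salmon, named butyrophilin subfamily 1 member A1-like and nuclear factor 7, brain-like. They are 2 of the 34514 genes listed in the counts of gill nuclei. They were chosen by measured values, namely their level and joint detection in pavement nuclei in earlier results of the same counts. Their levels and their joint detection in nuclei rich in LOC106587392, the locus of the ammonium transporter Rh type C (RHCG), are therefore a description and carry no test.

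Butyrophilins are membrane proteins of the immunoglobulin superfamily, related to the ligands that costimulate T cells, and many carry an intracellular PRY-SPRY domain. In mammals the founding member is a component of milk fat globules, and other members regulate T cells that reside in epithelia. Nuclear factor 7 was described in Xenopus as a protein of the tripartite motif (TRIM) type, with a RING finger, a B-box, a coiled coil and a PRY-SPRY domain. Pavement cells are the flat epithelial cells that cover most of the gill surface, and Rh glycoproteins such as RHCG carry ammonia across gill epithelia. What the 2 salmon proteins do in the gill was not given in the sources used here.

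Gills were sampled at 4 time points with 2 samples each, from fish of the commercial Aquagene strain raised in freshwater. T1 fish were parr kept in constant light, and T2 fish were taken after 8 weeks on a short photoperiod of 8 h light and 16 h darkness. T3 fish had then been back in constant light for 8 weeks (the methods give somewhat shorter periods than the labels), and T4 fish were a subgroup of T3 that spent 24 h in full-strength seawater. The labels give no age, sex or genotype and do not say whether a sample is 1 fish, so that p-values measure the spread between these samples only.

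The 8 libraries held 19709 nuclei and 27390978 unique molecular identifiers (UMIs, each 1 captured transcript), with 1748 to 3373 nuclei and 2770081 to 4383507 UMIs per library. The median nucleus held 638 to 1031 UMIs. A nucleus was called RHCG-high when it held at least 3 UMIs of LOC106587392 and lay at or above the 85th percentile of all nuclei, which was 46.9 UMIs of this gene per 10000 UMIs. This gave 2957 RHCG-high nuclei, 120 to 638 per library, and 16752 other nuclei. The gate cuts a continuous range, and 1101 nuclei lay within 0.25 of the threshold on the log2 scale. All 10 pavement loci used as a check were higher in RHCG-high nuclei in 8 of 8 samples, by 2.96- to 6.45-fold, although these loci were themselves taken from the study's marker table of the same nuclei. RHCG-high nuclei differed in depth between libraries: their median was 699 UMIs in T2 sample 1 and 4409 in T2 sample 2, where nuclei with 2500 or more detected genes held 66.9% of the gate's UMIs. Doublets were not removed. The libraries shared 49 cell barcodes, which 14 of the RHCG-high nuclei carried.

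LOC106577955 was counted 5103 times, in 3022 nuclei, with at most 25 UMIs in a nucleus. LOC106592219 was counted 5221 times, in 2933 nuclei, with at most 24. Each locus was a low-count gene at the level of single nuclei, since 1971 of the nuclei positive for LOC106577955 and 1827 of those positive for LOC106592219 held a single UMI. RHCG-high nuclei held 52.9% of the UMIs of LOC106577955 and 51.9% of those of LOC106592219. The same nuclei made up 15% of all nuclei and held 19.8% of all UMIs. Of the nuclei with 5 or more UMIs, 91 of 134 for LOC106577955 and 92 of 149 for LOC106592219 were RHCG-high. Such counts depend on depth, and the share of RHCG-high nuclei among nuclei of like depth was not counted.

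Levels are UMIs of a gene per 1000000 UMIs (CPM), summed over the nuclei of a gate in a sample. In RHCG-high nuclei LOC106577955 stood at 468 and 545 CPM at T1 (sample 1, then sample 2), 471 and 507 at T2, 531 and 601 at T3, and 434 and 381 at T4. Its 8 samples lay close together, 492 ± 68.7 CPM (SD, n = 8). The T4 samples were lowest, but the share of all genes with this order was not counted. Outside the gate it stood at 76.6 and 101 CPM at T1, 147 and 143 at T2, 106 and 86.7 at T3, and 119 and 91.1 at T4. No RHCG-high value overlapped with any value of the other nuclei. The locus was chosen for its level in pavement nuclei, and the share of all genes without such overlap was not counted. Within samples the level was 3.20 to 6.93 times higher in RHCG-high nuclei (median 4.59).

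LOC106592219 differed much more between samples of the same time point. In RHCG-high nuclei it stood at 217 and 756 CPM at T1, 705 and 416 at T2, 890 and 493 at T3, and 305 and 573 at T4, with a mean of 544 ± 231 CPM (SD, n = 8). The pairs spread so widely that the ranges of all 4 time points overlapped. Outside the gate it stood at 32.3 and 116 CPM at T1, 174 and 101 at T2, 219 and 58.2 at T3, and 93.9 and 131 at T4. The lowest RHCG-high value, of T1 sample 1, was below the highest value of the other nuclei, of T3 sample 1. Within each sample, however, RHCG-high nuclei were 3.25 to 8.47 times higher (median 4.24).

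**Figure D1:**
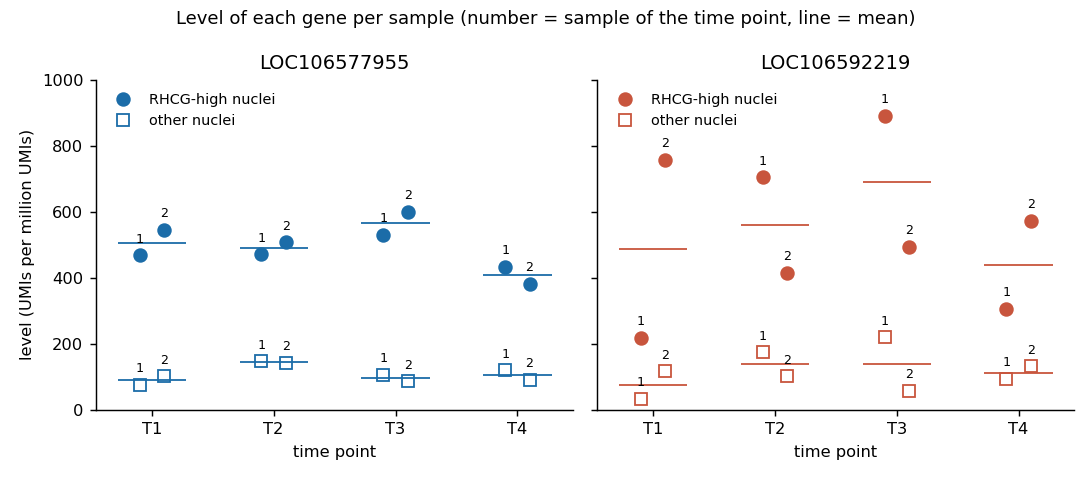
Level of LOC106577955 (left) and LOC106592219 (right) in CPM, by time point, in RHCG-high nuclei (filled circles) and other nuclei (open squares). Each point is 1 sample, numbered as in the labels, and lines are means of the pair; the filled circles of LOC106577955 sit between 381 and 601, whereas those of LOC106592219 spread from 217 to 890.

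Ranked by the ratio of RHCG-high to other nuclei, LOC106592219 was 38th and LOC106577955 was 49th of the 17566 genes with 200 or more UMIs, for which the median ratio was 0.81. Higher levels in RHCG-high nuclei in all 8 samples were found for 12.0% of these genes, so that this pattern by itself was common. RHCG-high nuclei with fewer than 3 UMIs of the 10 pavement loci were only 65, and 1 nucleus of them held a UMI of LOC106577955, as did 1 for LOC106592219.

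The level of LOC106577955 went up with that of the gate gene both below and within the gate. Nuclei without a UMI of LOC106587392 held 44.1 ± 22.5 CPM of LOC106577955 (SD, n = 8), and nuclei with a UMI but under the 70th percentile held 83.2 ± 21.4 CPM. Just outside the gate, from the 70th to the 85th percentile, LOC106577955 stood at 287 ± 84.5 CPM. Just inside it, in the lowest tercile of RHCG-high nuclei, it stood at 420 ± 83.4 CPM, and in the highest tercile at 601 ± 148 CPM. For this locus the gate cut through a gradual range of levels.

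The same steps gave 37.0 ± 26.4, 87.0 ± 44.3 and 320 ± 157 CPM for LOC106592219 outside the gate. Inside, its lowest, middle and highest terciles held 494 ± 235, 555 ± 269 and 585 ± 208 CPM. These SDs hold the differences between samples, and the terciles were not compared within samples. A second set of pavement-like nuclei came from the 10 pavement loci in place of LOC106587392. Among nuclei that were not RHCG-high, 1094 passed this marker gate, with 464 ± 66.3 CPM of LOC106577955 and 542 ± 237 CPM of LOC106592219. The 1094 RHCG-high nuclei that did not pass it held less, 361 ± 63.2 and 384 ± 183 CPM. The 1863 nuclei that passed both gates held 562 ± 90.7 and 620 ± 252 CPM. The 15658 nuclei in neither gate held 79.5 ± 18.2 and 75.6 ± 34.5 CPM.

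**Figure D2:**
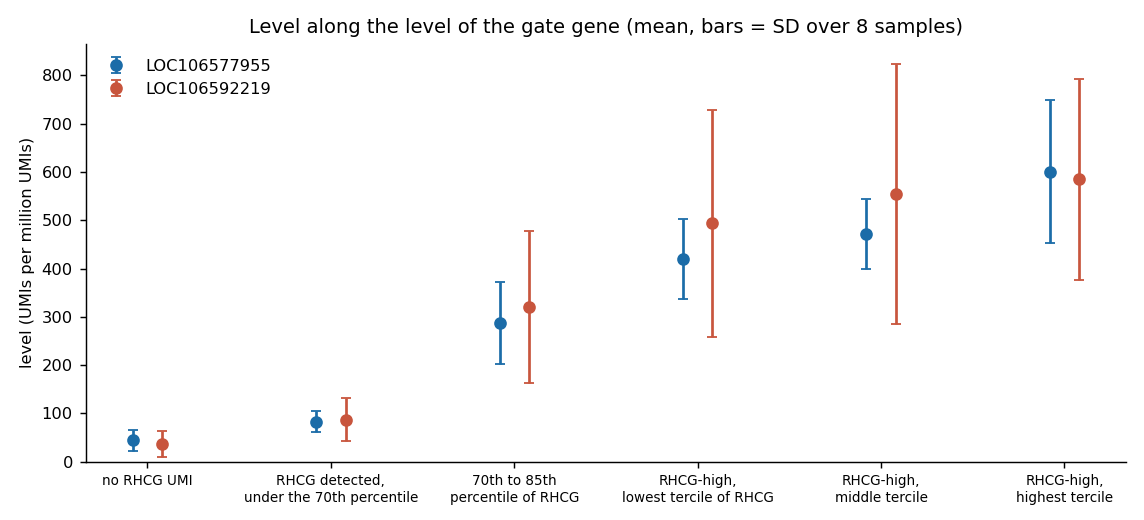
Level of the 2 loci in CPM (vertical axis) in nuclei ordered by their level of LOC106587392 (horizontal axis, from none to the highest tercile of RHCG-high nuclei). Points are means and bars are SD over 8 samples; LOC106577955 goes from 44.1 in nuclei without a UMI of the gate gene to 601 in the highest tercile.

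The difference between samples in LOC106592219 was seen again in nuclei that the RHCG gate did not select. In the 1094 nuclei of the marker gate alone it stood at 274 and 741 CPM in the T1 samples, 717 and 343 at T2, 933 and 470 at T3, and 309 and 554 at T4. In each pair the sample that was higher in RHCG-high nuclei was also higher here. LOC106577955 in the same nuclei ranged from 383 to 554 CPM. The ratio of LOC106592219 to LOC106577955 UMIs gives the contrast without a library total. In RHCG-high nuclei it was 0.46 and 1.39 at T1, 1.50 and 0.82 at T2, 1.68 and 0.82 at T3, and 0.70 and 1.50 at T4. Outside the gate it was 0.42 and 1.15, 1.18 and 0.70, 2.07 and 0.67, and 0.79 and 1.44 in the same order.

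Set against genes of like level, the spread between the 2 samples of a time point was large for LOC106592219. For LOC106577955 it was small in RHCG-high nuclei only. In RHCG-high nuclei the SD within time points was 0.15 on the log2 scale for LOC106577955, at the 5.44th percentile of 239 genes of like level, whose median was 0.30. For LOC106592219 it was 0.76, at the 97.4th percentile of 232 genes. Among the other nuclei the SD was 0.19 for LOC106577955, at the 43.8th percentile of genes of like level, whose median was 0.20. For LOC106592219 it was 0.95 there, at the 99.3rd percentile. These percentiles describe the 8 libraries, and whether genotype, tissue sampling or the library sets the spread cannot be told apart with the labels given.

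LOC106605798, a long non-coding RNA locus annotated next to LOC106592219 in a later salmon assembly (Ssal_v3.1), was looked at after the values of LOC106592219 had been seen. In RHCG-high nuclei it stood at 51.9 and 134 CPM at T1, 106 and 63.1 at T2, 113 and 111 at T3, and 65.3 and 119 at T4. In these nuclei the higher sample of each pair was the same one as for LOC106592219, by a small margin at T3. Outside the gate LOC106605798 stood at 8.92 and 15.6 CPM at T1 and 35.98 and 18.5 at T2. At T3 it stood at 31.9 and 9.76 CPM there, and at T4 at 27.4 and 26.8. Outside the gate the order was thus shared at T1, T2 and T3 but reversed, by a small margin, at T4. How many other genes share the order of LOC106592219 was not counted. Whether reads of one locus are counted in the other was not tested.

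Other gill nuclei were gated by markers of other cell types, each gate without the RHCG-high nuclei. A nucleus could pass several of these gates, so the gates overlap and their order is not a ranking of separate cell types. Only RHCG-high nuclei were taken out, so pavement-like nuclei of the marker gate could remain. LOC106577955 was next highest in nuclei with the CUZD1-like gene, with 253 ± 66.3 CPM (SD, n = 8) and 197 to 379 CPM by sample. It followed with 144 ± 48.3 CPM in nuclei with rhbg, a Rh glycoprotein gene, called the RHAG gate here. Nuclei with LOC106577877 held 109 ± 61.1 CPM. That collagen locus has the product name collagen alpha-5(IV) chain-like and is called COL4A1 here. Ionocytes (nkcc1a), goblet nuclei (mucin), Notch1 nuclei and nuclei in no gate held 75.5 to 84.0 CPM and were not distinct from each other. Below these stood myeloid nuclei at 65.9 CPM, T cell nuclei at 41.8 CPM, matrix nuclei at 32.8 CPM and erythroid nuclei at 30.2 CPM. The ranges of RHCG-high and CUZD1-like nuclei were apart by a narrow gap only. The lowest RHCG-high value was 381 CPM (T4 sample 2), and the highest CUZD1-like value was 379 CPM (T1 sample 2, 48 nuclei). How many other genes show such a gap was not counted. Each later neighbour in this order overlapped with the one before.

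The order was similar for LOC106592219. It stood at 260 ± 148 CPM in CUZD1-like nuclei, 169 ± 93.7 CPM in RHAG nuclei and 128 ± 87.2 CPM in COL4A1 nuclei. Ionocytes held 90.9 CPM, goblet nuclei 78.3 CPM, nuclei in no gate 77.8 CPM and Notch1 nuclei 75.1 CPM. T cell nuclei held 53.9 CPM, erythroid nuclei 40.3 CPM and matrix nuclei 25.8 CPM, and no UMI was found in the 123 myeloid nuclei. The erythroid mean includes 168 CPM in T1 sample 2, where a single nucleus held 15 of the 17 UMIs. The COL4A1, CUZD1-like and RHAG gates of that sample had the same highest count in a nucleus. Its ranges overlapped at every step, the first included. Within samples, RHCG-high nuclei were above every other gate in 8 of 8 samples for both loci. Since both loci were chosen for their pavement level, this is a description. The share of all genes with this pattern was not counted.

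**Figure D3:**
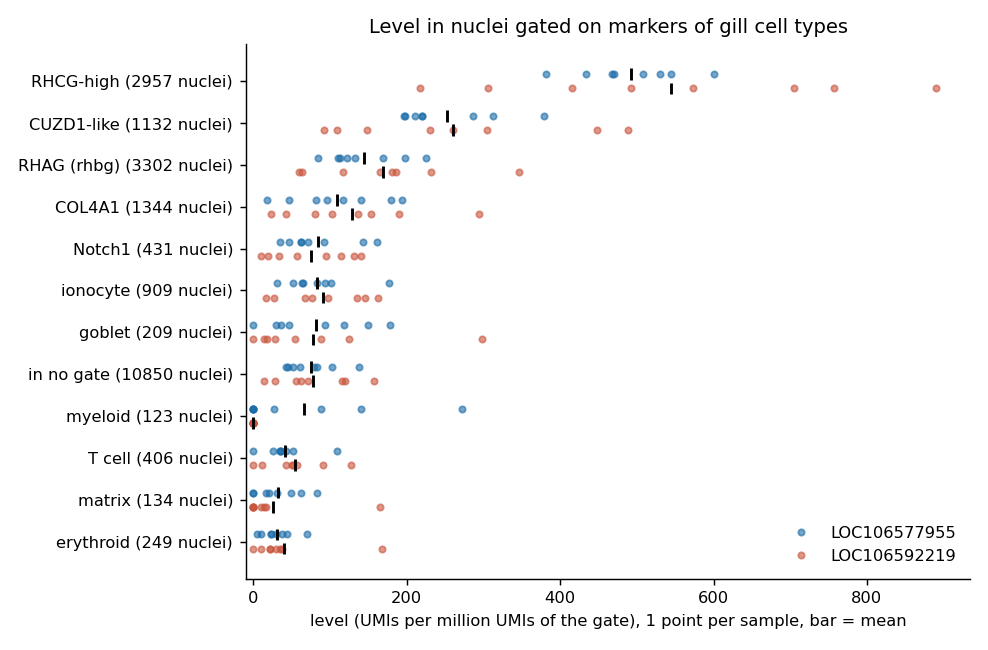
Level of the 2 loci in CPM (horizontal axis) in nuclei gated on markers of gill cell types (vertical axis, with the number of nuclei). Gates other than the RHCG-high gate can share nuclei. Each point is 1 of 8 samples and black bars are means; RHCG-high nuclei lead with means of 492 and 544, followed by CUZD1-like nuclei with 253 and 260.

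Small gates hold few nuclei per sample, 3 at the lowest for myeloid nuclei, so that their values rest on few UMIs. Genes of the other gates were also present in RHCG-high nuclei, of which 369 passed the COL4A1 gate, 1340 the RHAG gate and 349 the CUZD1-like gate. Whether these genes mark other cell types within RHCG-high nuclei was not tested. RHCG-high nuclei without a COL4A1 UMI held 554 ± 79.2 CPM of LOC106577955 and 578 ± 259 CPM of LOC106592219. Those with 3 or more COL4A1 UMIs held 369 ± 147 and 462 ± 216 CPM, and for LOC106577955 their samples ranged from 62.3 to 540 CPM. Their median was 2637 UMIs, against 909 in those without a COL4A1 UMI, so that the sets also differ in depth.

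The share of nuclei with a UMI depends on depth, so each nucleus was also thinned to 500 UMIs, by computing the chance that a UMI of the gene remained. At this depth LOC106577955 was found in 18.9 to 27.5% of RHCG-high nuclei by sample, with a mean of 22.1%, and in 4.26% of the other nuclei. LOC106592219 was found in 8.32 to 35.5%, with a mean of 23.3%, and in 4.34% of the other nuclei. Without thinning the means were 51.6% and 49.9% in RHCG-high nuclei. In T cell nuclei, pooled over samples, the thinned shares were 1.23% and 1.33% at a median of 817.5 UMIs, against 1089 in RHCG-high nuclei. A level of background was not estimated.

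In RHCG-high nuclei both loci had a UMI in 800 nuclei, LOC106577955 alone in 590, LOC106592219 alone in 573 and neither in 994. Among the other nuclei these numbers were 647, 985, 913 and 14207. Since deep nuclei show more genes, joint detection was compared at 500 UMIs with the product of the single shares in the same sample. Both loci were found in 5.98 ± 2.63% of RHCG-high nuclei (SD, n = 8), where the product of the shares was 5.22%. The ratio was 1.16 ± 0.11 and ranged from 1.01 to 1.30. Within RHCG-high nuclei the loci were thus found together little more often than the product of their shares.

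In the other nuclei both loci were found in 0.73% at 500 UMIs, against a product of 0.22%. The ratio ranged from 2.15 to 7.23 by sample, with a mean of 4.85 ± 2.16. At 1000 UMIs, with shallower nuclei left out, the mean ratio was 2.88 ± 1.03 with a range of 1.95 to 4.61. This setting changes both the depth and the set of nuclei, which cannot be told apart here. Without thinning, over all of the other nuclei, the mean ratio was 4.97 ± 2.03. The other nuclei mix cell types in which both levels differ, and whether this mix sets the ratio was not tested. Among all nuclei outside the marker gate the mean ratio was 4.12. That set is not the other nuclei, since it holds the 1094 RHCG-high nuclei that did not pass the marker gate.

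**Figure D4:**
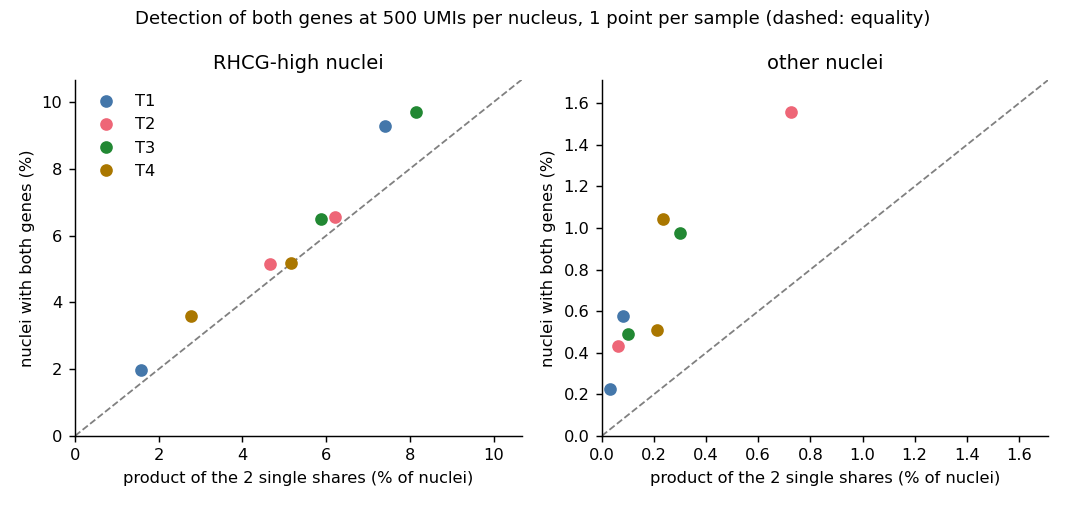
Share of nuclei with a UMI of both loci (vertical axis, %) against the product of the 2 single shares (horizontal axis, %), at 500 UMIs per nucleus, in RHCG-high nuclei (left) and other nuclei (right). Each point is 1 sample coloured by time point and the dashed line marks equality; ratios are 1.01 to 1.30 on the left and 2.15 to 7.23 on the right.

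Changes over time were tested on summed counts with edgeR's quasi-likelihood test over all genes, with Benjamini-Hochberg adjustment and a threshold of 0.01. Neither locus changed in RHCG-high nuclei in any of the 4 comparisons. Of 11575 genes, the test called 0.0346% for T2 with T1, 0.346% for T3 with T1, 1.06% for T3 with T2 and 0% for T4 with T3. The last comparison had 307 genes with an unadjusted p under 0.05, and DESeq2 also called 0. These 307 are a smaller share of the tested genes than the 0.05 that evenly spread p-values would give. LOC106577955 differed by a log2 fold change of 0.02 ± 0.30 (SE) from T1 to T2, 0.08 ± 0.30 from T1 to T3, 0.05 ± 0.30 from T2 to T3 and -0.48 ± 0.30 from T3 to T4. LOC106592219 differed by 0.29 ± 0.47, 0.46 ± 0.47, 0.17 ± 0.47 and -0.66 ± 0.47 in the same order. The adjusted p of edgeR was 0.759 or higher for both loci. These tests do not show a constant level, least of all for LOC106592219 with its larger SE.

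For the other nuclei the test called 0.00833% of 24020 genes for T2 with T1 and 0.121% for T3 with T1. It called 0.237% for T3 with T2 and 0% for T4 with T3. In the last comparison 579 genes had an unadjusted p under 0.05, again a smaller share than 0.05, and DESeq2 called 0. LOC106577955 had a log2 fold change of 0.75 ± 0.22 from T1 to T2 (edgeR adjusted p = 0.442) and of -0.62 ± 0.22 from T2 to T3 (edgeR adjusted p = 0.172). Neither comparison passed the threshold. Both T2 samples lay above the 6 others in CPM, but the share of all genes with this order was not counted. Thinned to equal depth as above, the share of other nuclei with a UMI of LOC106577955 was 7.77% and 3.10% at T2. It was 2.97% and 2.77% at T1, 4.03% and 3.95% at T3, and 5.22% and 4.28% at T4. In these shares T2 sample 2 lay above the T1 samples but below the T3 and T4 samples. The other nuclei of T2 sample 1 included 439 of the marker gate, those of T2 sample 2 included 60, and those of the remaining samples 57 to 177. In nuclei of neither gate LOC106577955 stood at 62.4 and 59.2 CPM at T1, 91.0 and 106.5 at T2, 68.0 and 71.0 at T3, and 102 and 75.5 at T4. There both T2 samples lay above those of T1 and T3 in CPM, while T4 sample 1 lay between the T2 samples. Thinned in the same way, shares in nuclei of neither gate were 2.47% and 1.78% at T1 and 5.09% and 2.21% at T2. They were 2.69% and 3.18% at T3, and 4.46% and 3.42% at T4. In these shares T2 sample 1 was highest, but T2 sample 2 lay below T1 sample 1 and both T3 samples. Whether depth or the mix of nuclei sets the T2 level in CPM was not tested. LOC106592219 had values of 0.96 ± 0.60 from T1 to T2, 0.93 ± 0.59 from T1 to T3, -0.03 ± 0.58 from T2 to T3 and -0.29 ± 0.58 from T3 to T4, and none passed.

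The difference of the time change between RHCG-high and other nuclei was tested with the sample as a block. The test called 0.176% of 22715 genes for T2 with T1, 0.361% for T3 with T1, 0.203% for T3 with T2 and 0% for T4 with T3. These are 40, 82, 46 and 0 genes, and leaving out 1 sample gave 4 to 42, 15 to 118, 8 to 67 and 0. For LOC106577955 the difference on the log2 scale was -0.74 ± 0.24 for T2 with T1 (edgeR adjusted p = 0.248) and 0.66 ± 0.24 for T3 with T2 (edgeR adjusted p = 0.349). For LOC106592219 it was -0.67 ± 0.25 for T2 with T1 (edgeR adjusted p = 0.424). With total UMIs as library size, the edgeR adjusted p of LOC106577955 for T3 with T2 was 0.0501. For T4 with T3, with 1 sample left out in turn, the difference was -0.93 to -0.42 for LOC106577955. It was -1.25 to -0.16 for LOC106592219. None passed, so that a time course particular to pavement nuclei was not detectable for either locus with 2 samples a time point.

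In all, 9 loci carry a product name with butyrophilin or nuclear factor 7 in the tables that name them, the 2 described here included, and 8 of the 9 had 200 or more UMIs. Names come from the study's tables of genes, which were made from these samples, so that the list is not independent of pavement levels. LOC106573777, also named nuclear factor 7, brain-like, stood at 824 ± 130 CPM in RHCG-high nuclei and 247 ± 55.0 CPM in the others. LOC106602683, a second locus named butyrophilin subfamily 1 member A1-like, stood at 383 ± 51.6 and 138 ± 35.4 CPM. LOC106592896, named butyrophilin subfamily 2 member A1-like, stood at 104 ± 24.9 and 32.4 ± 11.7 CPM. These 3 were higher in RHCG-high nuclei in 8 of 8 samples, like the 2 loci described here.

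The name did not go with the pattern throughout. LOC106577369, with the same product name as LOC106592896, was lower in RHCG-high nuclei in 8 of 8 samples, at 9.1 ± 2.9 against 21.7 ± 3.8 CPM. LOC106609500, named nuclear factor 7, brain-like, stood at 20.8 ± 7.4 against 16.0 ± 6.1 CPM and was higher in 7 of 8 samples. Of 21 loci named TRIM or tripartite motif, a family that shares its domains with nuclear factor 7, 16 had 200 or more UMIs, and 8 of these were higher in RHCG-high nuclei in all samples, as were 12.0% of all genes of that depth. The TRIM names come from the same tables of the study, so this count is not independent of pavement levels either. How far reads were divided between near-identical copies was not tested, since no sequence was available for the loci.

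LOC106577957, named butyrophilin subfamily 2 member A1-like, was listed in 7 of the 8 libraries. It stood at 250 and 294 CPM in RHCG-high nuclei of the T1 samples, 550 in T2 sample 2, 448 and 450 at T3, and 331 and 167 at T4, and was not listed in T2 sample 1. A gene is listed when at least 3 nuclei of the library hold it, and the other libraries held 219 to 1170 UMIs of it. Of the 2133 genes with at least 200 UMIs in each of the other 7 libraries, it was the only one not listed in T2 sample 1, and no such gene was found for any other library. This count was made after its values had been seen. Whether the row was lost in processing or the sample lacked the transcript cannot be told apart, so the 0 used for it in the plot and the fits is not a measured level. In the 7 libraries it was 2.71 to 5.62 times higher in RHCG-high than in other nuclei, with means of 356 and 94.4 CPM.

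**Figure D5:**
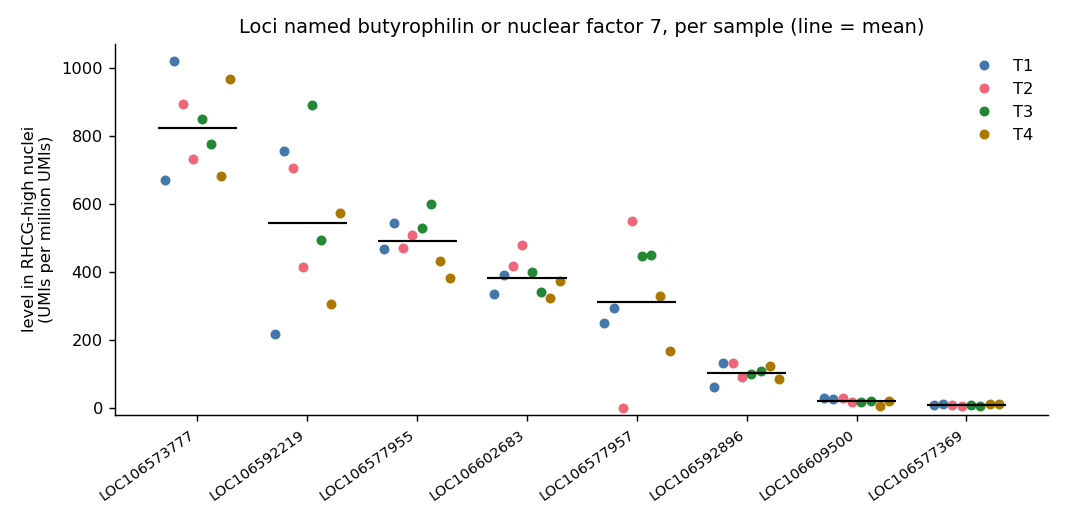
Level in RHCG-high nuclei, in CPM (vertical axis), of the 8 loci named butyrophilin or nuclear factor 7 with 200 or more UMIs (horizontal axis). Each point is 1 sample coloured by time point and lines are means over 8 samples. LOC106577957 is drawn at 0 in T2 sample 1, where it was not listed and has no measured level. In the other 7 samples it is drawn between 167 and 550, and its line, at 311, includes the 0.

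No change over time was called among the related loci. Of the 7 further loci named butyrophilin or nuclear factor 7, 5 had counts enough for the test in RHCG-high nuclei and 6 in the other nuclei, and 0 passed the threshold of 0.01 in either direction in any of the 4 comparisons. Of the TRIM loci, 14 were tested in RHCG-high nuclei and 19 in the others, and 0 passed. Since at most 1.06% of all genes were called in any of these comparisons, lists this short would hold few or no calls, and the counts say nothing particular about these loci. The TRIM locus nearest to the threshold was LOC106577949 in RHCG-high nuclei for T3 with T2, with a log2 fold change of 1.66 ± 0.40 (edgeR adjusted p = 0.0307).

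The genes most like each locus were taken by Pearson's r of log2(CPM + 1) over 95 points, each a gate in a sample, among 10826 genes with 500 or more UMIs. These points share libraries, cell types and, where gates overlap, nuclei, so r is a description. For LOC106577955 the closest was LOC106576941, named AHNAK-like after a large scaffold protein (r = 0.81), followed by LOC106613385, an N-acetylglucosaminyltransferase-like locus, rn128, the E3 ubiquitin ligase RNF128, LOC106611931, and LOC106613101, a dehydrogenase/reductase-like locus, with r of 0.78. For LOC106592219 the closest was psd2, pleckstrin and Sec7 domain containing 2 (r = 0.87), followed by LOC106604029, an integrin beta-like locus (r = 0.84), and LOC106564393, LOC106610168, an F-box only protein 8-like locus, and LOC106572625. The 2 loci had r of 0.75 with each other, and their lists of 5 shared no gene.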

How the data were processed

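Nuclei of frozen gill were isolated on a sucrose gradient and captured with the Chromium Single Cell 3' kit v3. Reads were aligned to ICSASG_v2 by the authors with Cell Ranger 3.1.0 (3.0.1 in the submitters' processing notes) and the NCBI annotation, and the deposited values are whole UMI counts per gene and nucleus, not normalized. Reads of near-identical copies may be lost or divided in such counting. The 2 loci, gates and gene lists were chosen with earlier results of these data known. All 19709 nuclei were used, which is more than the paper profiled, and its text does not say which were left out. They include 865 nuclei with 2500 or more detected genes, which were taken out only in an alternative.

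UMIs were summed per sample and gate, and tested with edgeR 4.0.16 (quasi-likelihood, TMM, filterByExpr with a minimum count of 10, all 8 samples in a fit) under R 4.3.3, with Benjamini-Hochberg adjustment over all genes, after a test on simulated data. A gene that a file does not list entered as 0. DESeq2 1.42.0 was an alternative, beside total UMIs as library size, no filter, a threshold of 0.05, the replicate number as a block, each sample left out in turn, no hemoglobin genes, and other gates. Shares at 500 UMIs left out shallower nuclei. Named genes were the 2 loci, the gate gene, loci named butyrophilin or nuclear factor 7 with 200 or more UMIs, and the 5 most alike genes of each locus. LOC106605798 and LOC106577949 lie outside this rule and were named after their values had been seen. Product names came from the study's tables, which name 3658 loci.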

Additional observations from a re-analysis of the deposited data

How the results depend on the processing

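Neither locus passed the threshold in any comparison over time under any alternative (0 of 448 values), and the lowest adjusted p was 0.0103, for LOC106592219 in the other nuclei for T3 with T1 without a filter on low counts. With 2 samples a time point, leaving out 1 of them moved the log2 fold changes of LOC106592219 most, and the sample that then stands alone is assumed to vary like the other groups. The causes of the changes below were not tested.

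The log2 fold change of LOC106577955 in RHCG-high nuclei for T2 with T1 turned to -0.047 with total UMIs as library size, -0.032 with the gate at the 80th percentile, -0.11 at the 90th, -0.019 with the gate on 10 other pavement loci and -0.085 without nuclei with COL4A1 UMIs. For T3 with T1 it turned to -0.058 at the 80th percentile and -0.011 without nuclei of 2500 or more genes, and for T3 with T2 to -0.026 and -0.027. In the other nuclei it turned to -0.015 for T4 with T3 at the 90th percentile. The difference between gates for T3 with T1 turned to 0.032 with total UMIs, 0.041 at the 90th percentile and 0.016 without nuclei with UMIs of other gates. LOC106592219 in the other nuclei for T3 with T2 turned to 0.020 with total UMIs, 0.081 at the 90th percentile, 0.42 with the gate on 10 other loci and 0.033 without nuclei of 2500 or more genes, and its difference between gates for T3 with T2 to -0.13 with the gate on 10 other loci.

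With each sample left out in turn, the log2 fold change of LOC106577955 in RHCG-high nuclei was -0.12 to 0.15 for T2 with T1, -0.031 to 0.19 for T3 with T1 and -0.079 to 0.20 for T3 with T2, in the other nuclei -0.011 to 0.25 for T3 with T1 and -0.071 to 0.32 for T4 with T3, and its difference between gates -0.34 to 0.17 for T3 with T1. That of LOC106592219 was -0.33 to 1.35, -0.17 to 1.52 and -0.28 to 0.53 in RHCG-high nuclei for the first 3 comparisons (T2 with T1, T3 with T1, and T3 with T2) and -1.20 to -0.21 for T4 with T3. In the other nuclei it was 0.33 to 2.04 for T2 with T1, -0.29 to 2.01 for T3 with T1, -1.25 to 0.62 for T3 with T2 and -0.93 to 0.94 for T4 with T3, and its difference between gates was -0.84 to 0.27 for T3 with T1 and -0.17 to 0.92 for T3 with T2. Counts of changed genes were 1 to 10, 21 to 70, 52 to 158 and 0 to 1 in RHCG-high nuclei and 1 to 6, 1 to 48, 4 to 52 and 0 in the other nuclei (in the order of the next paragraph).

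Counts of changed genes in RHCG-high nuclei, 4 for T2 with T1, 40 for T3 with T1, 123 for T3 with T2 and 0 for T4 with T3, became 75, 250, 391 and 17 without a filter and 11, 127, 337 and 1 at a threshold of 0.05. DESeq2 gave 9 for T2 with T1 and 61 for T3 with T1, against 24, 269 and 306 in the other nuclei for the first 3 comparisons. For T2 with T1 the count was 1 at the 80th percentile, 2 without nuclei with COL4A1 UMIs and 2 without nuclei of 2500 or more genes. In the other nuclei the counts of 2, 29, 57 and 0 became 343, 1360, 1331 and 77 without a filter, and 449 for T3 with T1 and 493 for T3 with T2 at 0.05. The gate on 10 other loci gave 1 for T2 with T1 and 34 for T3 with T2, and leaving out nuclei of 2500 or more genes gave 1, 10 and 15 for the first 3 comparisons. For the difference between gates, leaving out nuclei of 2500 or more genes gave 5, 23 and 18 in place of 40, 82 and 46. The labels do not say whether the sample numbers pair samples across time points. Correlations of same-numbered deviations were -0.21 to 0.30, which cannot decide it with so few samples. With the replicate block the counts that moved by over 1.5 times were 1 for T4 with T3 in RHCG-high nuclei and 93 for T3 with T2 in the other nuclei, and neither locus passed in any.

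Shares of nuclei with a UMI rise with depth by construction, and the share at 1000 UMIs leaves out shallower nuclei. At 1000 UMIs they were 38.7% for LOC106577955 and 38.5% for LOC106592219 in RHCG-high nuclei and 9.49% and 9.62% in the others, without thinning 51.6%, 49.9%, 9.66% and 9.20%. Joint detection was 16.9% and 2.50% at 1000 UMIs and 31.9% and 4.01% without thinning, and the ratio of joint detection to the product of shares was 1.12 and 2.88 at 1000 UMIs and 1.21 and 4.97 without thinning. With a pseudocount of 10 CPM, 1 of the 5 most alike genes was shared with the list at 1 CPM for each locus.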
